A study of Mus musculus with 5 samples.

Results

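The VEGF and angiopoietin axis was followed in whole mouse lung as 10 genes: the ligands Vegfa, Vegfc and Vegfd, their receptors Kdr, Flt1 and Flt4, the co-receptor Nrp1, the ligand Angpt1, and the receptors Tek and Tie1. Members were the probe sets that the platform annotation assigned to 1 of these genes and no other, which gave 18 of the 22626 probe sets on the array and 10 of its 12393 named genes. The probe set with the highest mean intensity stood for its gene, and the other probe sets of 5 members served as a check. There were 5 conditions, each measured on 1 array of RNA pooled from several animals, so no condition has a replicate and no test was run. The induced pool came from SM22-tet-BMPR2delx4+ mice on doxycycline, which switches on a mutant BMP receptor under the SM22 promoter, a promoter of smooth muscle cells; its right ventricular pressure was 50 ± 8 mmHg. The uninduced pool was of that genotype without doxycycline, at 30 ± 3 mmHg, and the SM22-rtTA pool, also on doxycycline and at 30 ± 3 mmHg, carried the doxycycline-dependent activator alone. The titles of these 3 transgenic pools give 8 weeks, which may be an age or a duration. The hypoxic pool (50 ± 8 mmHg) was of fvb/n mice kept hypoxic for 4 weeks and aged 8 weeks, and the wild-type pool of fvb/n mice aged 8 weeks, at 30 ± 3 mmHg. What the ± of the pressures stands for, and how many animals a pool held, is not stated.

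Vascular endothelial growth factors (VEGFs) are secreted proteins that act on receptor tyrosine kinases of endothelial cells. Vegfa binds Kdr, which carries most of its mitogenic signal, and Flt1, which binds it more tightly and also exists as a soluble decoy, while Vegfc and Vegfd act through Flt4, the receptor of lymphatic growth. Angpt1 activates Tek, also called Tie2, and keeps vessels quiescent, and Tie1 is a relative of Tek that modulates its signal. In the lung the alveolar epithelium is a main source of Vegfa, and the receptors sit on the dense capillary endothelium beside it.

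Markers of other tissues differed widely between the pools. Lung markers were high in all 5, with the alveolar surfactant gene Sftpc between 10706 and 13366 units of scaled intensity. Of 16 measured kidney genes, 15 were highest in the wild-type pool, where their intensities summed to 76539 against 4958 to 6928 elsewhere; Miox, which breaks down inositol in the kidney, was at 10416 there, while Podxl, the most intense of the list and also a gene of endothelium, was the exception at 2305, its lowest value. Adrenal and liver genes, led by Alb and Hsd3b1, summed to 13674 in the wild-type pool and 1246 to 2315 elsewhere. All 17 measured skeletal muscle genes, led by Acta1 and Ckm, were highest in the induced pool, with a sum of 78943, against 20962 in the hypoxic pool and 4838 to 7251 in the normal-pressure pools. Of 16 measured cardiac muscle genes, led by Actc1 and Mb, 13 were called higher in the induced pool by the rule given below, with a sum of 46324 against 13826 to 15750 elsewhere. Squamous epithelial genes, led by Krt4 and Krt13, summed to 16977 (induced) and 25657 (hypoxic) against 1677 to 2047 elsewhere, and fat genes, led by Lpl and Fabp4, to 14660 in the induced and 18502 in the wild-type pool against 5807 to 6853. Many members are expressed in those tissues too. Their part in the values below was not tested.

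All 10 members were above the noise floor, a scaled intensity of 276, in at least 1 pool, and 9 were above it in every pool, the exception being Angpt1. None of the 10 was called in either main comparison, where a call meant at least 1.5-fold from the matched control and outside the range of the 3 normal-pressure pools. For the induced against the uninduced pool, 3.3% of 8597 measured genes were called higher and 1.33% lower; for the hypoxic against the wild-type pool, 4.23% and 4.82%, so a count of 0 among 10 members lies close to the background. In the induced pool 8 of 10 members lay below the uninduced value, 1 above and 1 at the floor in both, with a median log2 ratio of -0.13, while over all measured genes 44.9% lay above and 41.5% below, with a median of 0.00. In the hypoxic pool 9 of 10 members lay above wild type, with a median of 0.39, against 53.2% of all measured genes and a median of 0.03. Of the 9 members above the floor in every pool, 7 were lowest in wild type, where 31.0% of the 5894 genes so measured were lowest, and 4 were highest in SM22-rtTA and 4 in the uninduced pool, where 17.2% and 19.0% of genes were highest.

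**Figure D1:**
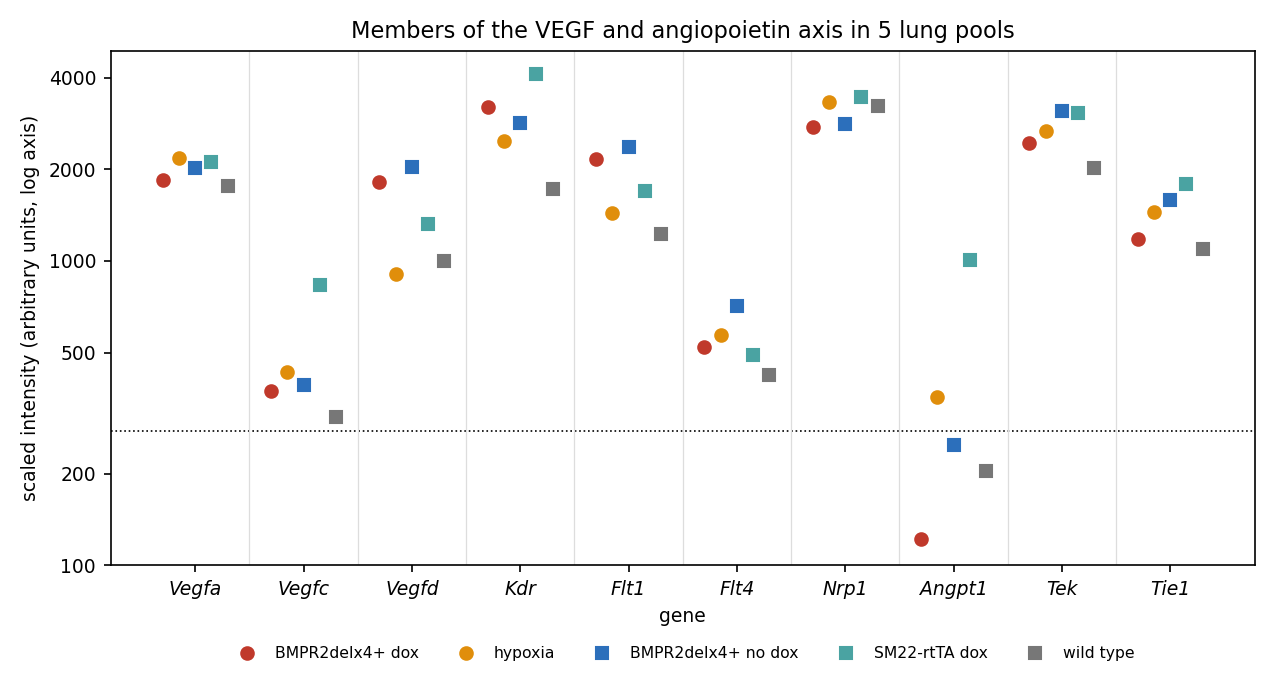
Scaled intensity (log axis) of the 10 members in 5 pools, 1 point per pooled array, circles for raised and squares for normal pressure; the dotted line is the noise floor of 276, under which points have no order. Wild type is lowest for Vegfa, Vegfc, Kdr, Flt1, Flt4, Tek and Tie1, and Angpt1 and Vegfc stand out in SM22-rtTA at 1006 and 832.

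Among the ligands, Vegfa varied least. Its intensity was 1841 in the induced, 2186 in the hypoxic, 2015 in the uninduced, 2107 in the SM22-rtTA and 1758 in the wild-type pool. The hypoxic value was the highest and the wild-type value the lowest, yet the whole range was 1.24-fold, a log2 difference of 0.31. That is under the SD of 0.34 with which the log2 ratio of SM22-rtTA to uninduced scattered over genes above the floor in every pool, the only measure of spread at normal pressure between transgenic pools. Against wild type the same SD was larger, at 0.63 for the uninduced and 0.62 for the SM22-rtTA pool. No order of the pools can therefore be read for Vegfa from this probe set.

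The second Vegfa probe set, 1451959_a_at, gave another picture, at 474 in the induced, 1246 in the hypoxic, 1034 in the uninduced, 2209.7 in the SM22-rtTA and 1135 in the wild-type pool. The range was 4.67-fold. The induced value lay 2.18-fold under the uninduced one and under all normal-pressure pools, so this probe set met the rule for a lower call, and SM22-rtTA lay 1.95-fold above the wild-type pool. In the array maker's naming the ending _a_at marks probes shared by several transcripts of 1 gene. Which Vegfa transcripts each of the 2 probe sets detects is not known here.

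Vegfc was at 375 in the induced, 432 in the hypoxic, 391 in the uninduced, 832 in the SM22-rtTA and 308 in the wild-type pool. SM22-rtTA stood apart, with a log2 gap of 0.95 to the next pool, and the other 4 followed each other in steps of 0.28 or less. The hypoxic to wild-type ratio was 1.40-fold and the SM22-rtTA to uninduced ratio 2.13-fold, so 2 pools at normal pressure differed by more than either raised-pressure pool did from its matched control.

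Vegfd, the other ligand of Flt4, had a different order. It was at 1819.6 in the induced, 907 in the hypoxic, 2042 in the uninduced, 1319 in the SM22-rtTA and 1000.1 in the wild-type pool. Both BMPR2delx4+ pools lay above the other 3, and the hypoxic pool was the lowest. A second probe set (1438953_at) also placed both BMPR2delx4+ pools on top, at 1336 and 1524 against 724 to 929. The third (1449528_at) did not: it read 909 in the induced pool, the lowest value, 1576 in the uninduced and 1672 in SM22-rtTA, and so met the rule for a lower call with a log2 ratio of -0.79. The standing probe set carries the ending _x_at, which marks probes that can also match other sequences.

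The upstream sequences of the ligands are shown because Vegfc and Vegfd, which share the receptor Flt4, had log2 ratios of 1.09 and -0.63 between SM22-rtTA and the uninduced pool by their standing probe sets. The second Vegfd probe set was at -0.71 and the third at 0.08 in that comparison. The standing probe set of Vegfa did not differ beyond the spread. They are the 250 bases before the annotated start from RefSeq on GRCm38.p6, 5′ to 3′ on the gene's strand, at chr17:46032378-46032627 (Vegfa, minus strand), chr8:54077282-54077531 (Vegfc, plus strand) and chrX:164373272-164373521 (Vegfd, plus strand). Capitals mark matches on either strand. The motifs searched were the GC box, spelled GGGCGG, which Sp1 factors bind, and the core GGAAGT that is typical of ETS factors of the endothelium. A site for GATA factors was searched as AGATAA, and the core to which hypoxia-inducible factor binds as ACGTG. The last was the palindromic cyclic AMP response element, spelled TGACGTCA. No match in the printed windows overlapped another.
Vegfa: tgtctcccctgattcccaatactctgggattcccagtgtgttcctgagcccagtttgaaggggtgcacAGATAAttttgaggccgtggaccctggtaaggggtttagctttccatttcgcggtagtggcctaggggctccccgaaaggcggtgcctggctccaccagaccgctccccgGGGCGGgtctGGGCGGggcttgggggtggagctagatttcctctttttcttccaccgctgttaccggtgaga
Vegfc: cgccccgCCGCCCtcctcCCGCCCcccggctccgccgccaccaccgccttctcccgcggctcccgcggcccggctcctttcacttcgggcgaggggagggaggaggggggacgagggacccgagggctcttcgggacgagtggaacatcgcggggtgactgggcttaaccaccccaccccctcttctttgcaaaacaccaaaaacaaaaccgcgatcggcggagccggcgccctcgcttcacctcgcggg
Vegfd: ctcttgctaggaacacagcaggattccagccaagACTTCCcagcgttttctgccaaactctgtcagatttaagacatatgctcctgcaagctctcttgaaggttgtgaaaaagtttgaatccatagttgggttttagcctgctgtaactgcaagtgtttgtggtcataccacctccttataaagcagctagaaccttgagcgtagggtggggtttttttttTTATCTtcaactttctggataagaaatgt
The GC content was 59.2% for Vegfa, 71.6% for Vegfc and 42.4% for Vegfd. Vegfa held 2 GC boxes and 1 GATA match, Vegfc 2 GC boxes, and Vegfd 1 ETS and 1 GATA match with no GC box. None of these 3 windows held the hypoxia response core. A second Vegfa window in the same table, before a start inside the gene (chr17:46025164-46025413), did hold 1 such core, with 1 GC box; it lies within the annotated gene and is not printed. Over the 32851 windows of this length, 32.7% held a GC box, 19.7% an ETS core, 9.99% a GATA site, 16.6% the hypoxia response core and 1.55% the cyclic AMP element. These matches describe letters in a window and say nothing of which factor acts there.

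Among the VEGF receptors, Kdr had the widest range of those above the floor in every pool, 2.38-fold. It was at 3212 in the induced, 2486 in the hypoxic, 2847 in the uninduced, 4112 in the SM22-rtTA and 1728 in the wild-type pool. Both pools on doxycycline lay above the other 3, with a log2 gap of 0.17 between the induced and uninduced pools, under the spread of 0.34. The hypoxic pool lay 0.52 above wild type and 0.46 below the mean of both transgenic normal-pressure pools. Kdr was the 1 member above its uninduced value in the induced pool and has 1 probe set on the array.

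Flt1 was at 2169.8 in the induced, 1436 in the hypoxic, 2361 in the uninduced, 1693 in the SM22-rtTA and 1229 in the wild-type pool. Both BMPR2delx4+ pools were again highest, 0.12 apart on the log2 scale and at least 0.36 above the rest. The probe set 1451756_at kept them highest, at 917 and 1018, but with SM22-rtTA close by at 898 and the hypoxic and wild-type pools at 531 and 549. Another probe set, 1454037_a_at, was above the floor in SM22-rtTA alone, at 446.

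Flt4 was at 522 in the induced, 570.5 in the hypoxic, 711 in the uninduced, 489 in the SM22-rtTA and 423 in the wild-type pool. The uninduced pool stood highest, by 0.32, and steps between the others were 0.21 or less. Its second probe set passed the floor only in hypoxia, at 301. Nrp1, which binds VEGF and semaphorins, lay between 2757 in the induced and 3449 in the SM22-rtTA pool, a range of 1.25-fold that is within the spread. Its other probe sets spread wider, from 1755 in wild type to 3309 in SM22-rtTA (1418084_at) and from 799 to 2139 between the same pools (1448944_at). In all 3 Nrp1 probe sets SM22-rtTA was highest.

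Angpt1 stood out by 1 pool. It was at 1006 in SM22-rtTA and 359 in the hypoxic pool, and at or under the floor in the uninduced (249), wild-type (204) and induced (122) pools, values that have no order. SM22-rtTA lay at least 3.64-fold above each of those 3 pools, and the hypoxic pool at least 1.30-fold above wild type. Angpt1 has 1 probe set, so the SM22-rtTA value rests on a single reading.

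The receptors of the Tie family varied less. Tek was at 2443 in the induced, 2665 in the hypoxic, 3108.5 in the uninduced, 3062 in the SM22-rtTA and 2017 in the wild-type pool, with no step between neighbours above 0.28. Tie1 was at 1179.7, 1448, 1587, 1795 and 1093 in the same order of pools. For both receptors the 2 transgenic normal-pressure pools were highest, then the hypoxic, the induced and the wild-type pool. Against the uninduced pool the induced pool was lower by log2 ratios of -0.35 for Tek and -0.43 for Tie1, 1.27-fold and 1.35-fold, neither of which reached 1.5-fold. The window before the Tie1 start (chr4:118489850-118490099, minus strand), shown as that of the receptor with the lower ratio, held 1 ETS core and no other of the motifs searched.
Tie1: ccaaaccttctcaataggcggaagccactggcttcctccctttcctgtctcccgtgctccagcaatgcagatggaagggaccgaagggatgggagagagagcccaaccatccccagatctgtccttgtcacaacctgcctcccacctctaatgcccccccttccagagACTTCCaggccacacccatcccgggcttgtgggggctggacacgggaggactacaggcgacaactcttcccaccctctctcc

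**Figure D2:**
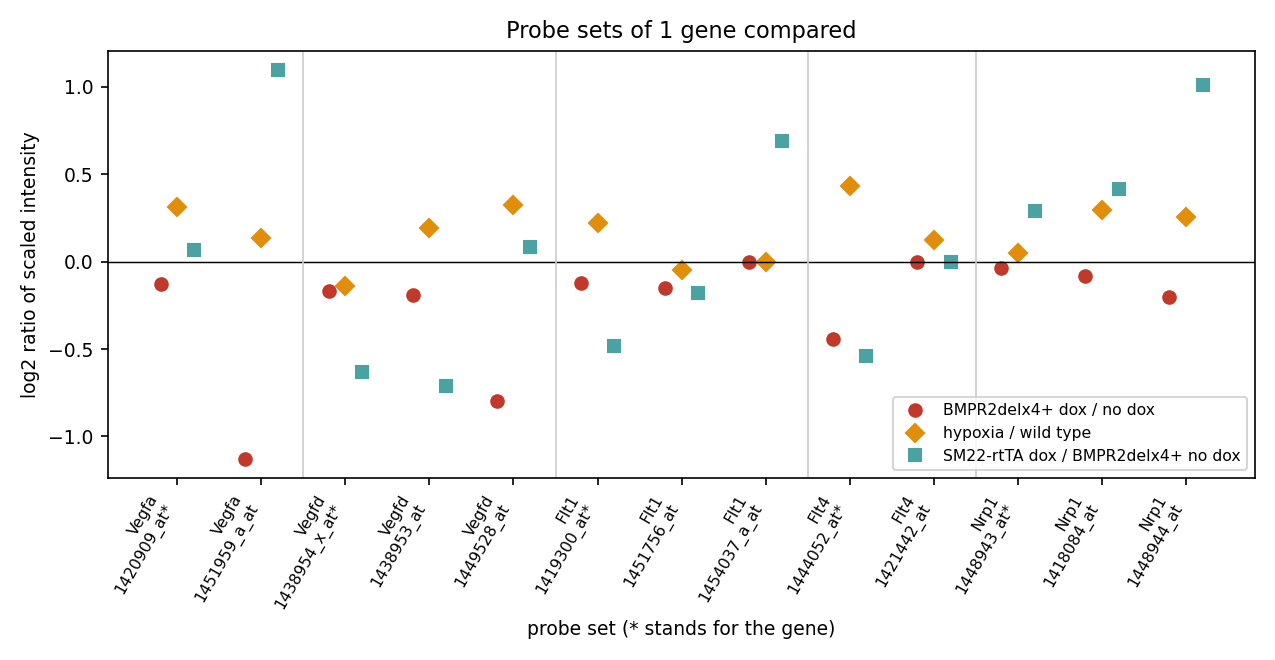
Log2 ratios of scaled intensity for every probe set of the 5 members with more than 1, with an asterisk at the probe set that stands for the gene; values under the floor were raised to it. Circles (induced over uninduced) reach -1.13 for the second Vegfa probe set and -0.79 for the third of Vegfd, and squares (SM22-rtTA over uninduced) reach 1.10 and 1.01 for 1 probe set each of Vegfa and Nrp1 where the standing probe sets read 0.06 and 0.29.

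The choice of control turned many directions. Set against SM22-rtTA in place of the uninduced pool, the induced pool had 7 members below 0 and 3 above, with a median of -0.32; Vegfc was at -1.15 and Angpt1 at -1.87 or less, while Vegfd (0.46) and Flt1 (0.36) lay above 0. By the standing probe sets none of the 10 was called. The 3 members at least 1.5-fold below SM22-rtTA (Vegfc, Angpt1 and Tie1) were not below both the uninduced and the wild-type pool. Of measured genes, 6.75% were called higher and 3.64% lower. The second Vegfa probe set, at -2.22, and the third of Vegfd, at -0.88, were called lower in the induced pool against SM22-rtTA. Set against the mean of both transgenic normal-pressure pools in place of wild type, the hypoxic pool had 8 members below 0 and a median of -0.31. Vegfd, at -0.86, was called lower there, as were 2.54% of measured genes; 9.67% were called higher, with no member among them. The other Vegfd probe sets were not called there, at -0.52 and -0.12. The Flt1 probe set 1451756_at was called lower, at -0.85, while the standing one, at -0.48, was not. Vegfa was at 0.31 against wild type and at 0.09 against those pools. Kdr changed sign, from 0.52 to -0.46, as did Vegfc, Flt1, Flt4, Angpt1, Tek and Tie1 by their standing probe sets. The Flt1 probe set 1451756_at did not, as it was already at -0.05 against wild type. These comparisons share pools, so their values are given side by side and not as separate evidence.

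**Figure D3:**
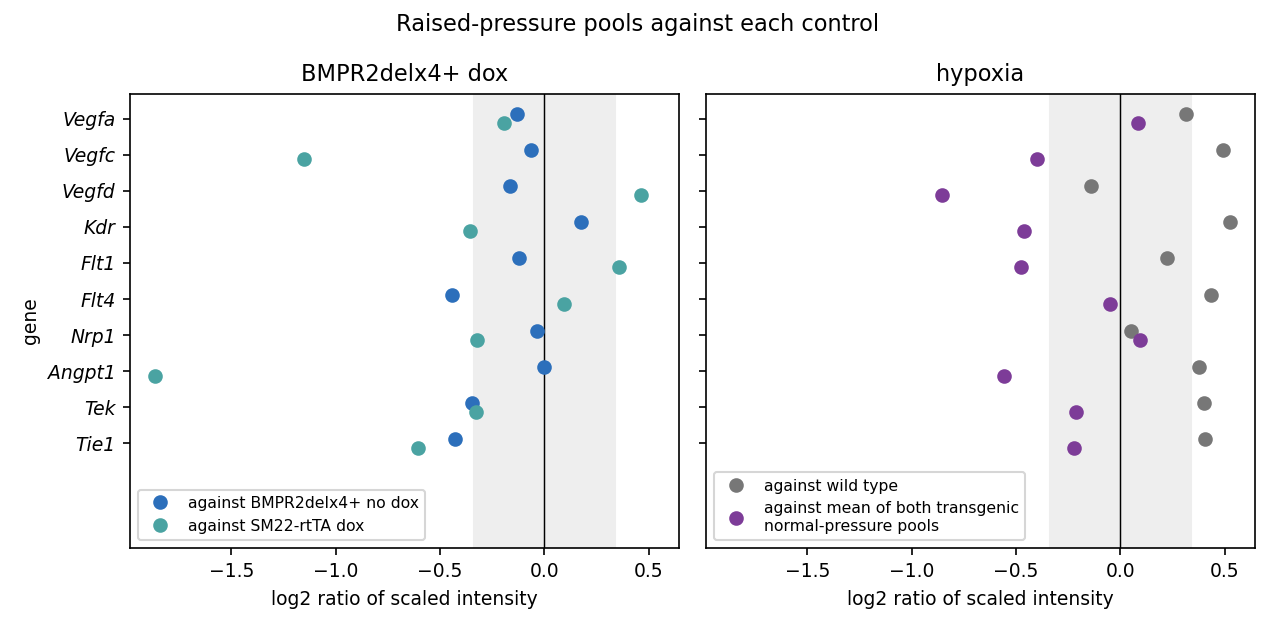
Log2 ratios of scaled intensity of the 10 members, with the induced pool on the left and the hypoxic pool on the right, each against its matched control and a second control; the grey band is 1 SD (0.34) of the SM22-rtTA to uninduced log2 ratio over 5894 genes. Against wild type 9 hypoxic points lie right of 0, and against the transgenic pools 8 lie left of it. The band is narrow for ratios to wild type, where the same SD was 0.63 (uninduced) and 0.62 (SM22-rtTA). The largest hypoxic to wild-type ratio, 0.52 for Kdr, lies within those.

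Without raised pressure, 3 members already differed at least 1.5-fold between SM22-rtTA and the uninduced pool: Vegfc and Angpt1 higher and Vegfd lower. Over measured genes 3.05% were higher and 4.57% lower. The Vegfd difference depends on the probe set: the second met the fold too, at -0.71, but the third read 0.08. It was lost with the mean of probe sets and at 2-fold. Angpt1, at the floor in the uninduced pool, dropped out where probe sets had to be above the floor in every pool. Against wild type, all 10 members lay above 0 in SM22-rtTA and 8 of 10 in the uninduced pool, with medians of 0.53 and 0.58, and 5 were at least 1.5-fold higher in each, where 10.3% and 13.1% of measured genes were (17.8% and 17.2% were lower, with no member among them).

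Compared directly, the induced pool was at least 1.5-fold above the hypoxic pool in Vegfd (2.01-fold) and Flt1 (1.51-fold) and by the standing probe sets in no member at least 1.5-fold below it. Of all measured genes 10.8% were higher and 11.4% lower by this rule. The third Vegfd probe set went the other way, with a log2 ratio of -0.72, and the second Vegfa probe set was 2.63-fold lower in the induced pool. The second Vegfd probe set was 1.61-fold and the Flt1 probe set 1451756_at 1.73-fold higher in the induced pool. With the mean of probe sets neither Vegfd nor Flt1 reached the fold and Vegfa was lower. The Flt1 mean includes 1454037_a_at, which was under the floor in both raised-pressure pools. With quantile normalization Vegfd alone remained. With the 30th percentile floor Angpt1 was added, lower in the induced pool.

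The pools were also divided by what the labels give, in splits chosen after the values were seen. By genotype, Vegfd and Flt1 lay above in both BMPR2delx4+ pools with no overlap, as did 17.8% of measured genes, and Nrp1 lay below, as did 8.92%. This is by the standing probe sets: in both other Nrp1 probe sets wild type was lower than either BMPR2delx4+ pool, and in the third of Vegfd the induced pool was lowest. By doxycycline, Kdr lay above in both treated pools, as did 4.27% of measured genes, and no member lay below in both, against 4.97%. By pressure, no member had both raised-pressure pools outside the range of the normal-pressure pools, against 6.0% of measured genes above and 4.96% below. No test was run on these splits of 2 pools against 3.

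Markers of endothelial cells differed between the pools as well. Of 25 measured endothelial genes, 22 lay below the uninduced value in the induced pool, 5 were called lower (Eng, Icam2, Plvap, Clec14a and Foxf1) and none higher. Their median log2 ratio was -0.28, and -0.49 over the 21 above the floor in every pool, while Kdr was at 0.17 and Flt1 at -0.12. The summed intensity of the list was 49247 in the induced and 51963 in the wild-type pool and between 64943 and 66539 in the other 3. Ramp2 and Egfl7, its most intense genes, were at 4767 and 4412 in the induced pool against 6725 and 5095 in the uninduced pool. Relative to the median of -0.49, the 9 members above the floor lay above 0, from 0.05 for Flt4 and 0.06 for Tie1 to 0.66 for Kdr; Angpt1, at the floor in both pools, has no ratio. Against the median of -0.28 over all 25 genes, Flt4 (-0.44), Tie1 (-0.43) and Tek (-0.35) lay lower. In hypoxia against wild type the list median was 0.40, with 22 of 25 above 0 and 4 called higher, and Tek and Tie1, at 0.40 and 0.41, lay at that median. By the standing probe sets Kdr was 0.12 above it, Nrp1 0.35 below and Vegfd 0.54 below. The other Nrp1 probe sets, at log2 ratios of 0.29 and 0.25, and those of Vegfd, at 0.19 and 0.32, lay nearer the median. In pooled whole lung, fewer endothelial cells and less RNA per cell cannot be told apart. The induced pool also had the highest sum of skeletal muscle markers (78943) and the wild-type pool that of kidney markers (76539). What part those tissues had in the endothelial values was not tested.

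**Figure D4:**
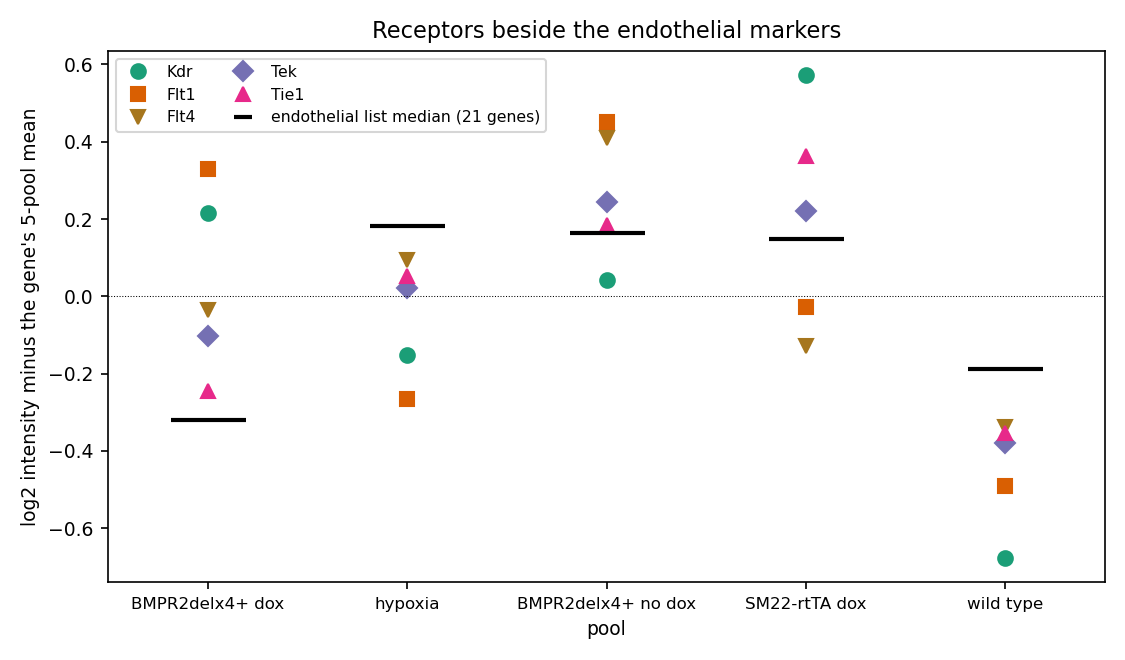
Log2 scaled intensity of 5 receptors in each pool, minus the gene's mean over the 5 pools, with the median of 21 endothelial genes treated alike as a black bar. In the induced pool Kdr and Flt1 are at 0.22 and 0.33 over a bar at -0.32, while Tek and Tie1 are at -0.10 and -0.24; in wild type all 5 receptors lie under the bar of -0.19.

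Other lung cell types were set beside the members in the same way. All 11 measured alveolar type 1 genes, led by Hopx and Cav1, lay below the uninduced value in the induced pool (median -0.36, none called) and above wild type in hypoxia (median 0.56, 2 called higher). Type 2 genes, led by Sftpc and Sftpa1, had medians of -0.38 and 0.45, over 13 genes. For pericytes and smooth muscle, led by Acta2 and Tagln, the medians were 0.11 and 0.41, over 15 genes, and for fibroblasts, led by Inmt and Limch1, -0.24 and 0.35, over 14. Macrophage genes, led by Lyz2 and Csf1r, summed to 10828 in the induced pool and 14219 to 17788 elsewhere. Of 8 measured, 2 lay above the uninduced value in the induced pool and 4 below, with a median of -0.09. Lyz2 was at 5464 in the induced against 8559 in the uninduced pool, and Csf1r at 2005 against 1922.5. Platelet genes, led by Pf4 and Ppbp, summed to 7055 in the induced, 2554 in the wild-type and 4416 to 5529 in the other pools. Of the lymphatic genes measured, Lyve1, the hyaluronan receptor, was at 2434 in the uninduced pool and 999 to 1644 in the others and was called lower in hypoxia, and Pdpn, shared with type 1 cells, was called higher; the regulator Prox1 was under the floor in every pool.

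The other genes of the pathway were taken from a list of 50, of which 47 were on the array and 43 measured. In the induced pool their median log2 ratio was -0.09, with 0 called higher and 3 lower, against 3.3% and 1.33% of all measured genes. The lower ones were the semaphorins Sema3f (740 against 1468) and Sema3c (537 against 914), which bind neuropilin complexes, and Rasip1 (860 against 1411), which is needed for vessel lumens. In hypoxia 1 was called in each direction, with a median of 0.35. Over all measured genes 4.23% were called higher and 4.82% lower, so these counts lie close to the background. The Kdr adaptor Sh2d2a was at 680 against 354, and Vegfb, a ligand of Flt1, at 162, under the floor, against 483. At normal pressure Vegfb was also at 279 in the uninduced pool, just above the floor of 276, and at 462.5 in SM22-rtTA. Against the mean of both transgenic pools 4 of the 43 were called higher in hypoxia, Plcg1 (947), Sh2d2a, Nfatc1 (871) and Foxo1 (1661), and none lower. Over all measured genes 9.67% were called higher there and 2.54% lower, so this count lies close to the background. In wild type Plcg1 was at 709.8, Nfatc1 at 682 and Foxo1 at 1366. Ptprb, the phosphatase that restrains Tek, ordered the pools as Flt1 did, at 2609 and 3016 in the BMPR2delx4+ pools against 2045 in SM22-rtTA, 1585 in hypoxia and 1201 in wild type. Angpt2, the partial antagonist of Tek, was between 230 and 304, near the floor in every pool. Nos3, which makes nitric oxide downstream of Kdr, was at 599 in hypoxia against 512 in wild type and was not called. In the induced pool it was at 528 against 523 in the uninduced pool, a log2 ratio of only 0.01. SM22-rtTA was lowest, at 334. Both raised-pressure pools thus lay above the others for Nos3, as they did for 6.0% of all measured genes. Of 22 measured targets of hypoxia-inducible factor, which also drives Vegfa, 0 were called in hypoxia against wild type, with a median of -0.04. Among all measured genes 4.23% were called higher and 4.82% lower in that comparison. The most intense, Aldoa, was at 5391 against 6800 and Ldha at 3778 against 5795. With the mean of both transgenic pools as control 0 were called too, with a median of -0.09. Aldoa was then at a log2 ratio of 0.35 and Ldha at -0.06.

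Genes with the most similar pattern were found by the root mean square difference of median-centred log2 intensity over the 5 pools, which share all their arrays. For Vegfa the nearest of 5893 genes were Slain2 (0.02), Rab4b (0.03) and Nap1l1 (0.03). For Kdr they were Arap2 (0.08), Lsp1 (0.09) and Arhgdib (0.12), and for Tek Sort1 (0.04), Golim4 (0.05) and Slk (0.05), each of 3507 genes with a range of at least 1.5-fold. Tie1 was the member most like Tek, at rank 36 with 0.10. For Angpt1, with 3 pools raised to the floor, the nearest gene was Vegfc, at 0.39, then Sf3a3 and Ifngr2 at 0.41 and 0.42. With 5 pools and this many genes, such likeness is a description.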

How the data were processed

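The deposited table gives a linear intensity for each probe set and array, from biotin-labelled whole lung RNA, per the labels; the authors pooled animals on each array, per the series' design text. No source used here states how the authors summarised, background-corrected and scaled them. No deposited intensity was under 50, and between 9.85% and 12.5% of each array sat at that value.

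The log2 intensities were shifted so that the arrays shared a median over 9046 probe sets above the 50th percentile of each (shifts from -0.11 to 0.13). Values under the 50th percentile of all shifted values, 276, were raised to it, so a ratio with a pool at this floor is a bound. Names came from the platform annotation, brought up to date through gene IDs in a RefSeq table (GRCm38.p6); 20380 had 1 gene and 691 several. A gene above the floor in at least 1 pool is called measured (8597 of 12393). The call rule was at least 1.5-fold from the matched control, above the floor, and outside the range of the 3 normal-pressure pools; direct comparisons used the fold alone. With 1 array per condition no p-value is given, and the number of arrays limits the precision. Python 3.11.15, numpy 2.4.6 and pandas 2.3.3 were used. The call rule was tested on simulated pools with planted 4-fold changes only, which does not show how it performs near 1.5-fold. Named genes were the 10 members, called genes of the pathway list, the 3 nearest profiles of 4 members and the 2 genes of highest mean intensity in each marker list; Ptprb, Angpt2, Nos3, Plcg1, Nfatc1, Foxo1 and Prox1 were named after their values were seen. The members and lists were chosen with earlier results of these data known. Motif windows were 250 bases; 9 of 10 members had at least 1, and Vegfa had 2.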

Additional observations from a re-analysis of the deposited data

How the results depend on the processing

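Values as deposited left every count of calls as it was, with medians of -0.15 for the induced and 0.41 for the hypoxic pool. The 70th percentile floor left the counts as they were, but the hypoxia median fell from 0.39 to 0.14, with Vegfc at 0.00 and Flt4 at 0.04, where values were raised to that floor. Called members against the uninduced pool went from 0 to 1 with the 30th percentile floor (Angpt1, lower) and to 1 with the mean of probe sets (Vegfa, lower), and to 2 with each gene's probe set of largest ratio (Vegfa and Vegfd, lower), an alternative chosen after seeing the data. In hypoxia the count went from 0 to 1 without the wild-type pool, which also changed the control to the mean of both transgenic normal-pressure pools (Vegfd, lower, as it is against that mean with wild type in the range); the median of 0.39 became -0.31, and the median was -0.27 against SM22-rtTA. Members apart between the raised-pressure pools went from 2 to 3 with the 30th percentile floor (Angpt1 added, lower in the induced pool). The count fell to 1 with quantile normalization, at 2-fold and with the mean of probe sets (then Vegfa, lower in the induced pool). With a pseudocount of 50 it was 2, with Angpt1 in place of Flt1. Relative to the endothelial list, also chosen after seeing the data, the medians became 0.36 for the induced and -0.011 for the hypoxic pool. The cause of these shifts was not tested. Leaving out the endothelial setting, which shifts all members by 1 constant, 162 of 194 single-member values under an alternative moved by less than the spread and 32 by more, and 22 had the other sign; none of these had been called. Some of the 162 values could not move, so these counts overstate how stable the values are. Leaving out the wild-type pool does not enter the induced to uninduced ratio. A lower floor, or the demand to be above it in every pool, cannot change a ratio between pools above the floor. The direct comparison uses neither the range nor a control, so without the wild-type pool its count was 2 by construction. Leave-one-out was not possible with 1 array per group. No paired analysis was possible because each group has 1 pool and no test was run.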
